A study of Mus musculus with 2 samples.

Results

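Transcripts with 25 or more exons that were read with their whole chain of introns were examined in long-read RNA sequencing of mouse cortex. In this assay a read can cover most or all of a cDNA molecule, and the deposited tables give the number of reads of each transcript model. A member was a model that the deposited tables class as Known (its introns match those of an annotated transcript from the first to the last), with at least 25 exons and at least 1 read in either library. There were 930 members in 675 genes, out of 24329 Known models with a read. Cortex from the left side of the brain was taken from male mice of the strain B6CASTF1/J (a hybrid of a laboratory and a wild-derived strain) at an age of 14 days, with no treatment named in the labels. The labels give 1 group with 2 replicate libraries, so the design holds no comparison of conditions. Both libraries carry the same donor identifier and a description that mentions several males, so each may be a pool. Nothing in the sources used here says that they came from separate animals, and the p-values below set the libraries against counting error alone.

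Genes with many exons encode large proteins built from repeated or separate domains, such as kinesin and dynein motors, ion pumps, collagens, spectrins and adhesion receptors. Their primary transcripts are long, and every intron has to be removed to give a mature mRNA. Neurons use alternative exons of such genes widely, often short exons that keep the reading frame. A read that holds the whole chain shows which exons were joined in 1 molecule, which a short read cannot.

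In 26 genes at least 2 members had 5 or more reads in each library, and the introns of the 2 leading members were compared in each. In 10 of the 26 pairs the models differed by 1 cassette exon (an internal exon that is either kept or skipped whole) and by nothing else in the chain. Beyond the leading pairs fixed for naming, these genes were named after their values were seen. All 10 exons lay in the annotated coding sequence, and all 10 had a length that is a multiple of 3, from 18 to 93 bases. These are traits of annotated models, since both models of a pair are annotated. No background of other annotated pairs was set beside them. In 7 further pairs the difference was the first exon or the donor site of the first intron, and in 3 it was an internal acceptor site. Shown here are 6 of these exons, because they are the whole difference between a gene's 2 leading full-length forms, with the 12 bases on either side that they are joined to. They are from the GENCODE M21 transcripts (mm10), 5′ to 3′ on the strand of the gene, with the cassette exon in capitals and its neighbours in lower case.
Nckap1, minus strand, chr2:80571213-80571230: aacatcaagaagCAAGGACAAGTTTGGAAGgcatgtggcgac
Anxa6, minus strand, chr11:54987051-54987068: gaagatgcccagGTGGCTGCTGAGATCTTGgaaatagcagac
Acly, minus strand, chr11:100503160-100503189: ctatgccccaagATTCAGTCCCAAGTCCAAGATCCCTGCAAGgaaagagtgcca
Usp47, plus strand, chr7:112080172-112080231: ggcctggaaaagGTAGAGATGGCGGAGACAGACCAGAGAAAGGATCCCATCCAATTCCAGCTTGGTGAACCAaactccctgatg
Smarcc2, plus strand, chr10:128481682-128481774: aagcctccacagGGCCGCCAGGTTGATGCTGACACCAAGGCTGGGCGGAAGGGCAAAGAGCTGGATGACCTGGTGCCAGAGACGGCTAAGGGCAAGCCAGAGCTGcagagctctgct
Enpp2, minus strand, chr15:54851348-54851422: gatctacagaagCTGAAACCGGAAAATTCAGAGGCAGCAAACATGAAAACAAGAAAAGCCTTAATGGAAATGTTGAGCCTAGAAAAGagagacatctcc

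Nckap1 encodes a subunit of the WAVE complex, which drives branching of actin filaments. Its 32-exon model Nckap1-202, with the 18-base exon, had 93 reads in replicate 1 and 103 in replicate 2, and the 31-exon model Nckap1-201, without it, had 70 and 81. Over all reads of the gene that span the site, the exon was included in 106 of 182 reads in replicate 1 (58.2%, 95% Wilson interval 51.0 to 65.2%) and in 116 of 205 in replicate 2 (56.6%, 49.7 to 63.2%). Both forms were therefore common in both libraries, with a mean inclusion of 57.4 ± 1.17% (SD, n = 2).

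Acly encodes the cytosolic enzyme that makes acetyl-CoA from citrate. Acly-203, with the 30-base exon, had 99 and 74 reads, and Acly-201, without it, had 63 and 48. Inclusion over all reads was 58.8% in replicate 1 and 60.1% in replicate 2. Anxa6 encodes annexin A6, a membrane-binding protein, and its 18-base exon was included in 75.7% and 76.9% of reads. In each of these genes the intervals of the libraries overlapped and the form with the exon led.

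The exon of Usp47, a deubiquitinase gene, was included in 39.3% and 44.3% of reads, and that of Smarcc2, a subunit of the BAF chromatin remodelling complex, in 69.6% and 58.8%. Enpp2 encodes autotaxin, a secreted enzyme that makes lysophosphatidic acid, and its 75-base exon was the rarest of the 10, at 8.11% (4.98 to 13.0%) and 5.51% (3.51 to 8.53%). The exons in Sbf1, Map4k3 and Relch had mean inclusion of 20.5%, 26.1% and 27.9%. Inclusion in reads that covered only part of the gene or an unannotated chain lay within the interval of the member reads for Enpp2 (5.80% against 6.68%), Anxa6 (77.8% against 76.1%) and Usp47 (46.7% against 41.1%). For Nckap1 it was 26 of 40 reads (interval 49.5 to 77.9%) against 56.5% (51.2 to 61.6%) and for Acly 53.5% (38.9 to 67.5%) against 60.3% (54.5 to 65.8%). For Smarcc2 it stood at 71.2% (47 of 66 reads) against 57.8% in member reads (48 of 83), and for Relch at 12.5% (2 of 16 reads) against 35.3% (12 of 34), and the intervals overlapped in each of these 4 genes.

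Other leading pairs differed at first exons and splice sites. Atp13a2-203 and Atp13a2-201, whose models differ by an acceptor site 74 bases apart, had 80 and 110 reads against 49 and 65, and Pde2a-212 and Pde2a-201, with acceptors 12 bases apart, 137 and 159 against 12 and 26. Uba1-201 held 200 and 201 reads and Uba1-202, whose first intron has its donor 4599 bases away, 15 and 14. Atp9a-201 held 550 and 656 against 16 and 7 for Atp9a-204, which also differs at the first intron. Among genes named after their values were seen, Hyou1, a chaperone of the endoplasmic reticulum, divided 26 and 26 against 18 and 15 reads between models that differ in the first exon or its donor. Hdlbp, an RNA-binding protein gene, divided 14 and 16 against 13 and 13 between first-intron donors 33133 bases apart. The leading form thus held over 90% of the pair's reads in Uba1 and Atp9a and close to equal parts in Hdlbp.

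**Figure D1:**
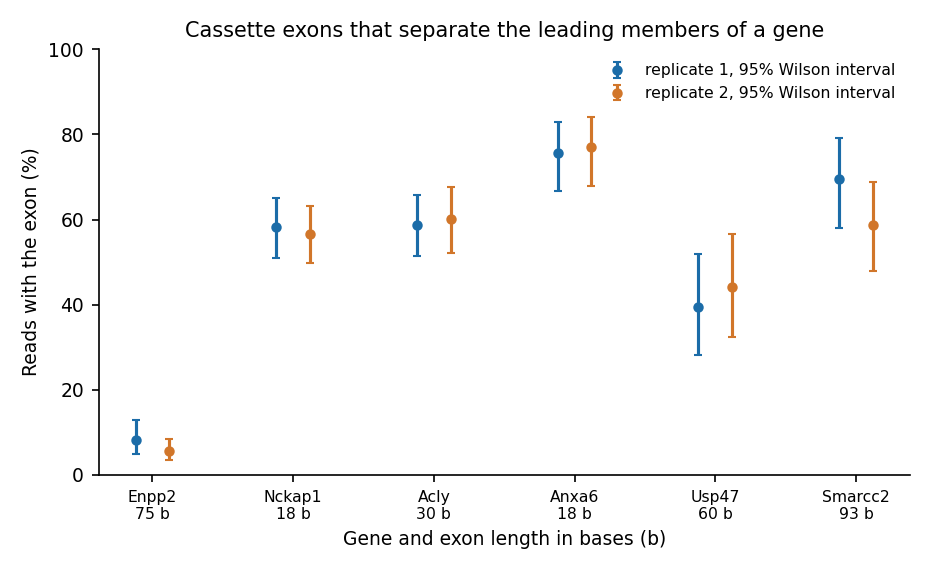
Share of reads with the cassette exon (vertical axis, %) for the 6 genes whose cassette exons are printed above, with the exon's length in bases under the gene's name. Points are the libraries and bars are 95% Wilson intervals; the intervals of the libraries overlap in each gene, from 5.51% to 8.11% in Enpp2 up to 75.7% to 76.9% in Anxa6.

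Across all classes of reads of the 675 genes, 508 cassette events in 163 genes had at least 20 reads in each library over the kept and skipped forms. In 80 of them, in 55 genes, inclusion lay between 10% and 90% in both libraries, and these limits were chosen after the data were seen. An exon skipped by more than 1 intron, such as the 99-base exon of Dlg1, counts as more than 1 event. Among these 80 events 71 (88.8%) had an exon length divisible by 3. The share was 52.0% among the 250 events with inclusion over 90% in both libraries and 38.2% among the 152 events under 10%. Many events of these last groups rest on 1 read of the rarer form, and errors of single reads were not told apart from splicing. A 232-base exon of Uba1, for instance, was kept in 0 and 1 reads and skipped in 207 and 209. Inclusion in the 80 events differed between libraries by a median of 5.18 percentage points. The largest gap was 28.5 points (the 33-base exon of Ppfibp1, 56.8% and 85.3%). This exon was kept in 21 and skipped in 16 reads in replicate 1, and kept in 29 and skipped in 5 in replicate 2. Of the 508 events, 0 differed between the libraries at a Benjamini-Hochberg adjusted p under 0.05 (Fisher's exact test).

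Because a long read can cross distant exons, pairs of variable exons could be read on the same molecule. Reads of all classes were counted here, not member reads alone. In 14 genes 26 such pairs were covered by at least 20 reads in each library. Inclusion of the exon at the higher coordinate was higher with the other exon than without it in both libraries for 7 pairs, and lower in both for 6. The other 13 changed direction between libraries or lacked a value. The pairs described next, in Ptk2 and Ank2, were chosen after their values were seen.

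Ptk2 encodes focal adhesion kinase, and 2 short exons of 21 and 18 bases, about which its reads divided, are shown because they were nearly always kept or skipped together. They come from an annotated model of the gene with no coding sequence of its own, again with the exons in capitals.
Ptk2, minus strand, chr15:73275621-73275641: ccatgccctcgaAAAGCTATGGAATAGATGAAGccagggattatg
Ptk2, minus strand, chr15:73282218-73282235: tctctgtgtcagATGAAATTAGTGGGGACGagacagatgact
Of the reads that spanned both sites in replicate 1, 34 held both exons, 13 held neither and 0 held only 1 of them. In replicate 2, 25 held both, 8 held neither and 4 held the 21-base exon alone. Over both libraries 0 member reads held either exon and 3 skipped each, so the reads with both exons were of other classes. Ank2 encodes ankyrin-B, an adaptor between membrane proteins and spectrin. Its 183-base and 99-base exons went the other way. In replicate 1, 24 reads held the 183-base exon alone, 9 held the 99-base exon alone and none held both or neither, and in replicate 2 the counts were 26, 4, 1 with both and 0 with neither.

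Members were a small part of all reads. They took 8766 of 511250 Known reads in replicate 1 (1.715%, 1.68 to 1.75%) and 9685 of 596629 in replicate 2 (1.623%, 1.59 to 1.66%), a mean of 1.67 ± 0.0646% (SD, n = 2). Mouse reads of all classes numbered 775048 and 924222. Of the members, 735 were read in replicate 1, 792 in replicate 2 and 597 in both. The depth per member was low: 247 had 1 read over both libraries, the median was 4, 297 had at least 10 and 37 at least 100. A member read in 1 library only had at most 9 reads, under the minimum of 10 for the library test below. With no read minimum in that test, none of these members was called as different between the libraries. The members had 25 to 77 exons (median 29) and annotated lengths of 2096 to 15297 bases. Their genes spanned a median of 74.3 kb of genome, up to 1022 kb. Most (900) were annotated as protein coding, 15 as targets of nonsense-mediated decay, 10 as retained introns and 5 as processed transcripts. The length is that of the annotated model, since a Known call rests on introns, and where a read began and ended is not measured.

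Members covered 25.6% of the 3637 annotated models with 25 or more exons, and genes with a member 47.1% of the 1432 genes that have such a model. Among protein-coding models the share with a read was 44.2% at 10 to 14 exons, 41.1% at 20 to 24, 38.0% at 25 to 29, 28.2% at 30 to 34, 18.8% at 40 to 49 and 8.76% at 50 or more. Just outside the limit, 157 models with 24 exons had 2242 and 2407 reads, led by Ap2a1-203 (246 and 244), and just inside it 117 models with 25 exons had 1337 and 1462, led by Enpp2-201 (121 and 228).

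The 10 leading members held 22.9% of all member reads. Counts are given as reads, not divided by length, and as reads scaled to the library's total of mouse reads (CPM). Since the part of reads that is full length falls with model length, the order of the members is one of full-length reads and not of the genes' expression. Atp9a-201, a 28-exon model of a phospholipid-transporting ATPase of endosomes on chromosome 2 (168634438 to 168741800, minus strand, mm10), was far ahead: 550 reads came from replicate 1 and 656 from replicate 2, or 709.6 and 709.8 CPM. Kif5c-201 (chromosome 2, 49619298 to 49774778, 26 exons), of a neuronal kinesin heavy chain that carries cargo along axons, had 231 and 246 reads, 282 ± 22.5 CPM. Kif5a-201, of another neuronal kinesin heavy chain, had 131 and 159 reads. The gap from Atp9a to the rest was far beyond the spread between libraries. The range of Ddx1-201 (279 and 231 CPM) overlapped with that of Kif5c-201 (298 and 266) and that of Uba1-201 (258 and 218). Within each library Kif5c-201 was above Ddx1-201, and Ddx1-201 above Uba1-201.

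Among the other leading members, Ddx1-201 (RNA helicase) had 216 and 213 reads, and Uba1-201 (the enzyme that activates ubiquitin, on chromosome X) had 200 and 201. Vps41-201 (a subunit of the HOPS complex, which tethers vesicles to lysosomes) had 166 and 143. Nedd4-201 (ubiquitin ligase) had 117 and 118, and Ddb1-201 (adaptor of the CUL4 ubiquitin ligase) had 118 and 112. Pde2a-212 (a phosphodiesterase that breaks down cyclic AMP and cyclic GMP) had 137 and 159, but Pde2a shares introns with the overlapping gene Gm45837, so the division of reads between them is uncertain. Introns shared with another gene were found in 11 of the 675 genes, among them also Psmd1, Ipo4 and Snx14, whose counts below carry the same uncertainty.

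**Figure D2:**
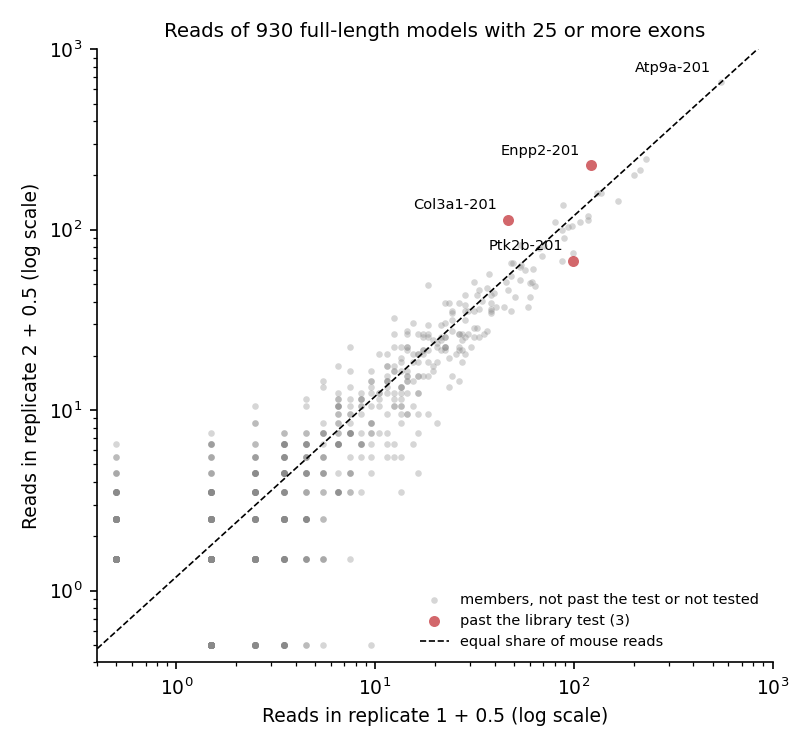
Reads of each of the 930 members in replicate 1 (horizontal) and replicate 2 (vertical), both with 0.5 reads added, on log axes. The dashed line marks an equal share of mouse reads; Atp9a-201 (550 and 656 reads) lies on it, and the 3 red points are the members past the library test.

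The models with the most exons were near the limit of detection. Dync1h1-201, the heavy chain of cytoplasmic dynein with 77 exons, had 1 read in replicate 1 and 0 in replicate 2, and Usp24-201, a deubiquitinase with 68 exons, had 4 and 3. Col5a1-201 (66 exons), Col11a2-202 and Col22a1-201 (64 exons each), which encode collagens, had 1 read each. Among the 5 longest models, Dpp10-202 (15297 bases, 26 exons), of a protein that associates with Kv4 potassium channels, stood apart with 21 and 29 reads. Dgkh-202 had 6 and 3, Itsn1-208 1 and 1, and Arfgef3-202 and Dync1h1-201 1 read in 1 library each. Counts of 0 here allow up to 3 reads of the library's total, by counting error alone.

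For each gene with a member, the member reads were then set beside the incomplete splice matches (ISM) of the same gene. Most of these hold a run of the annotated introns but not all of them. Those with a single exon, which hold no intron, numbered 509 and 641 reads and were counted as well. The full-length share, member reads over member plus ISM reads, was 56.4% in replicate 1 (8766 of 15553 reads, 55.6 to 57.1%) and 54.67% in replicate 2 (9685 of 17717, 53.9 to 55.4%), a mean of 55.5 ± 1.20% (SD, n = 2). The rule requires at least 1 full-length read, which raises this share: over all genes with an annotated model of 25 or more exons it was 47.3%. The intervals of the libraries did not overlap, and the gap of the libraries was small beside the range over genes given below.

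Genes with a member had a larger part of their reads incomplete than other genes. ISM made up 41.6% and 42.9% of Known spliced plus ISM reads in the 675 genes, against 11.3% and 12.1% in the 11938 other genes with a Known spliced read. The difference was 30.28 percentage points in replicate 1 (Newcombe 95% interval 29.5 to 31.0) and 30.84 in replicate 2 (30.1 to 31.6). When the other genes were limited to those whose leading model was as long as the central 80% of members, the difference was 23.3 points.

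The ISM share was higher in each bin of exon number than in the one before up to 40 to 49 exons, so 25 exons marked no step of its own. Taking each gene by its leading Known model, the mean was 7.52 ± 0.356% at 2 to 4 exons, 14.4 ± 0.777% at 10 to 14, 27.9 ± 1.53% at 20 to 24, 35.1 ± 1.70% at 25 to 29, 44.0 ± 0.318% at 30 to 34 and 70.1 ± 0.128% at 40 to 49 (SD, n = 2). At 50 or more exons, in 25 genes, it was 61.1 ± 4.71%. Length and exon number rise together, so the same was read within bands of length. Among models from 5000 to under 7000 bases the ISM share went from 8.89% at 2 to 4 exons to 24.1% at 10 to 14 and 48.2% at 25 or more, and among those of 7000 bases and more from 3.69% to 24.4% and 71.8%. The order was not the same in every band: from 4000 to under 5000 bases the share was 19.7% at 2 to 4 exons, 13.2% at 5 to 9, 16.4% at 10 to 14 and 38.9% at 25 or more.

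**Figure D3:**
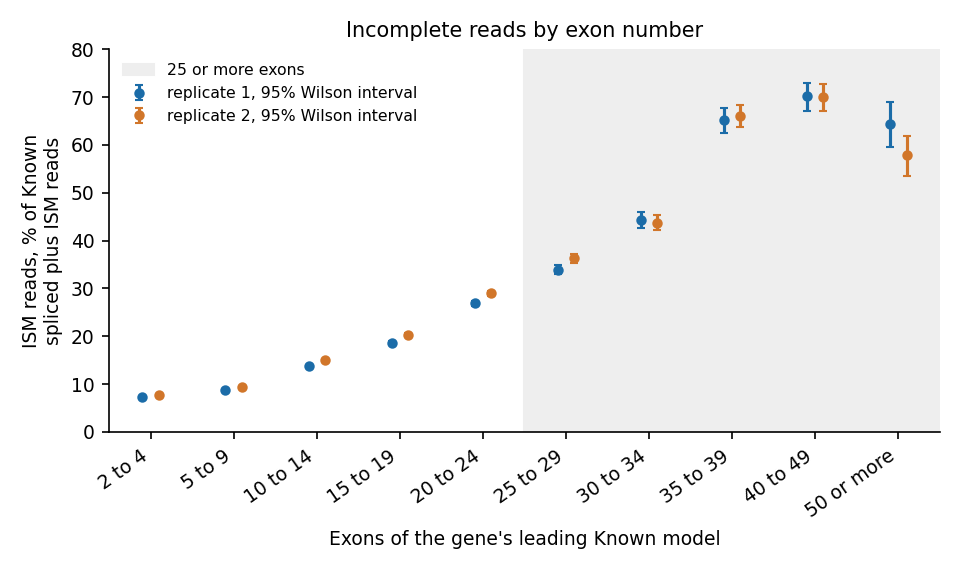
ISM reads as a percentage of Known spliced plus ISM reads (vertical axis) by the exon number of the gene's leading Known model (horizontal axis), per library with 95% Wilson intervals; the shaded part holds 25 or more exons. The share climbs from under 10% at 2 to 9 exons to about 70.1% at 40 to 49.

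Most incomplete reads of these genes kept the 3′ end. Suffix ISM, which lack introns at the 5′ end alone, were 85.2% and 84.7% of ISM reads in genes with a member, against 69.3% and 69.6% in other genes, and prefix ISM, which lack the 3′ end, were 6.26% and 6.25%. Of the spliced ISM reads, 85.5% and 85.8% fitted inside the chain of a member. The suffix reads among these lacked a median of 18 introns in both libraries, 58.3% and 60.0% of the member's introns, and kept a median of 14 exons over 2923 and 2889 bases. Their starts were spread along the whole chain, with the most between 50% and 90% of the introns missing and 7.55 ± 0.267% of reads within 10% of the 5′ end.

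**Figure D4:**
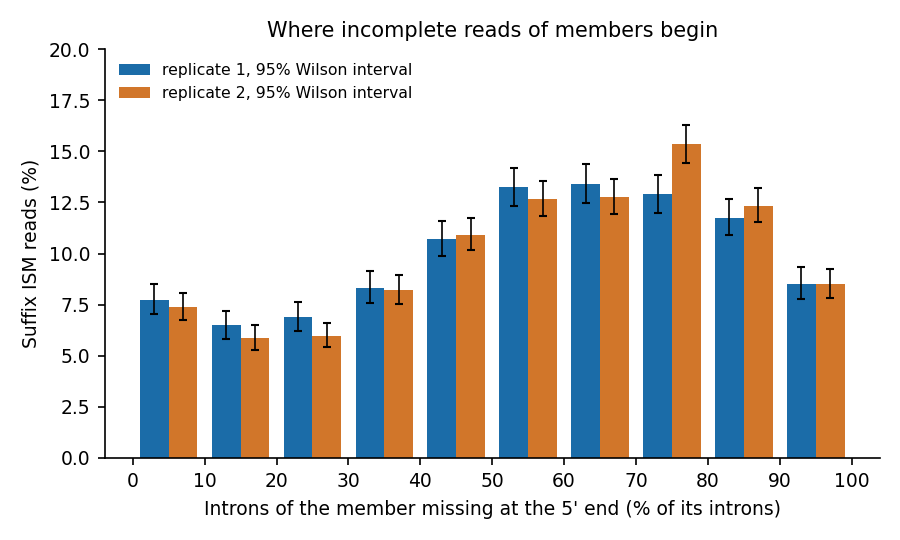
Share of suffix ISM reads (vertical axis, %) by the part of the member's introns that is missing at the 5′ end (horizontal axis, %), per library with 95% Wilson intervals. The bars rise from 6.18% (mean) at 10 to 20% of introns missing to 14.1% at 70 to 80%.

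Some incomplete chains recurred at 1 intron boundary in both libraries. Of 6231 distinct spliced ISM chains, 1424 were seen in both libraries and 60 had at least 20 reads. In Gtf2i, a general transcription factor gene, the 10-exon 3′ part of the 34-exon Gtf2i-203 had 46 and 42 reads, more than the 24 and 35 of the whole model. In Cdc42bpb (a kinase that acts downstream of CDC42) an 8-exon 3′ part had 35 and 26 reads against 7 and 11 of the 37-exon model, and in Ckap5 (a microtubule polymerase) a 21-exon 3′ part had 23 and 44 against 14 and 15. In Abca2, a lipid transporter of the nervous system, a 19-exon 3′ part had 30 and 29 against 3 and 2 of the 48-exon model. Sik3, a salt-inducible kinase, had the reverse form: a 14-exon 5′ part with 30 and 21 reads against 0 and 1 for Sik3-204. The annotated transcripts that end there, and the starts within the exon, were not examined.

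The full-length share differed widely between genes and little between libraries. In 205 genes with at least 20 member plus ISM reads in each library, the median was 60.3% and the range 0.781% to 97.1%; 113 genes were above 50% in both libraries and 71 below it in both. Across these 205 genes Spearman's rho between the libraries was 0.959, between the share and model length -0.427, and between the share and exon number -0.296. These describe genes, which are not independent replicates, and the share's numerator and denominator come from the same libraries. By exon number of the leading member the pooled share went from 64.8% at 25 to 26 exons to 29.96% at 40 or more, and by length from 77.7% under 3500 bases to 25.6% at 7000 bases or more. Within models of 7000 bases and more it was 41.3 ± 3.64% at 25 to 29 exons and 22.2 ± 0.798% at 30 or more, whereas under 4000 bases the same groups stood at 74.1 ± 0.675% and 70.4 ± 3.42% (SD, n = 2). From 4000 to under 5000 bases the order was the reverse, 59.5 ± 2.93% and 62.5 ± 0.0623%.

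The highest shares were those of Ddx1 (216 member and 6 ISM reads, then 213 and 7, or 97.3% and 96.8%), Anapc4 (a subunit of the anaphase-promoting complex, 100% and 93.9%), Scfd1 (a regulator of membrane fusion in the secretory pathway, 38 of 40 and 43 of 44 reads), Pnpt1 (a mitochondrial exoribonuclease, 100% and 92.0%) and Snx14 (a sorting nexin, 100% and 90.9%). The lowest, each with 1 member read in all, were Fmnl1 (34 and 63 ISM reads), Dync1h1 (51 and 67), Celsr2 (31 and 48), Plcg1 (29 and 47) and Ptprs (41 and 47). They encode a formin, the dynein heavy chain, an adhesion receptor, phospholipase C gamma and a receptor phosphatase. Dpp10, with the longest model, had 26 member and 23 ISM reads in replicate 1 and 32 and 35 in replicate 2. Its share was 50.4 ± 3.75% (SD, n = 2). Fmnl1-207 is 3824 bases long and Plcg1-203 5107. In Fmnl1 a suffix ISM chain with 10 and 36 reads fitted inside no member, so its reads need not be parts of Fmnl1-207. The part that length has in the share of a single gene was not tested.

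**Figure D5:**
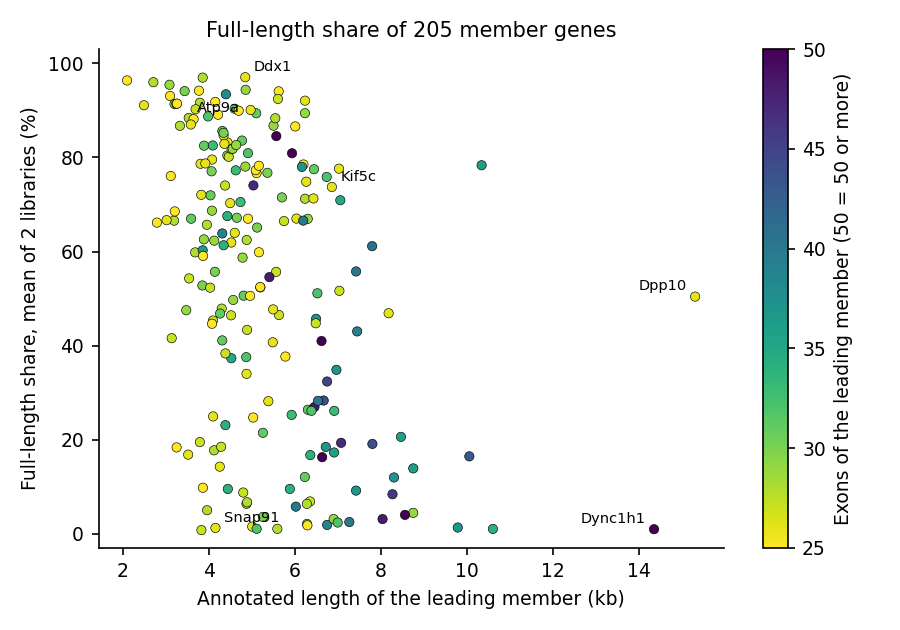
Full-length share (vertical axis, mean of 2 libraries, %) against the annotated length of the leading member (horizontal axis, kb) for the 205 genes with at least 20 member plus ISM reads in each library; colour gives the exon number. Shares cover nearly the whole range below 5 kb and are mostly low above 7 kb, with Dpp10 (50.4%) as an exception beyond 14 kb.

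Of the 1432 genes annotated with 25 or more exons, 757 had no member. Of these 153 had no read at all, 604 had a read of some class, and 145 had at least 10 ISM reads over both libraries. Sptan1, which encodes alpha-II spectrin, had 95 and 116 ISM reads and no full-length read of a model of 25 or more exons. The same held for Ttc3 (91 and 110), Adgrl1, a latrophilin receptor (53 and 69), Kif1a, a kinesin that carries synaptic vesicle precursors (41 and 63), and Lrp1, a large endocytic receptor annotated with up to 89 exons (41 and 63). Transcripts of these genes were thus read, but no annotated chain of 25 or more exons was read whole. Known reads of models with fewer exons numbered 2 and 6 in Ttc3, 1 and 4 in Lrp1, 0 and 2 in Sptan1, 0 and 1 in Adgrl1 and 0 and 0 in Kif1a. Whether unannotated chains of these genes were complete was not examined, and the part of depth was not tested.

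The gene groups below were drawn up with earlier results of these data known, and some of their genes fit the group's name only loosely, as the roles given show. Of 35 pump and transporter genes annotated with 25 or more exons, 26 had a member, with a full-length share of 69.3 ± 0.953% (SD, n = 2), led by Atp9a, Atp13a2 (a lysosomal polyamine exporter, 129 and 175 member reads) and Atp13a1 (38 and 36). The share in the ubiquitin, proteasome and protein quality control genes was 70.8 ± 2.53%, with 29 of 47 genes represented (Uba1, Nedd4 and the proteasome subunit Psmd1, 107 and 110). Metabolic enzymes had 18 of 24 genes and 66.2 ± 0.353% (Acly, 163 and 124; Opa1, a GTPase of mitochondrial fusion, 61 and 66; Mthfd1, of folate metabolism, 49 and 47). Nuclear pore, transport and RNA processing genes had 40 of 51 and 64.2 ± 1.98% (Dhx36, a helicase, 60 and 50; the importin Ipo4, 53 and 52; the spliceosome subunit Sf3b1, 60 and 42). Vesicle coat and traffic genes had 31 of 49 and 63.0 ± 2.35%, with Vps41, the coatomer subunit Copa (69 and 86) and the neuronal adaptor subunit Ap3b2 (87 and 67). Translation genes had 10 of 12 and 61.6 ± 0.923% (Eftud2, a GTPase of the spliceosome related to elongation factors, 97 and 110; the tRNA synthetases Eprs, 33 and 46, and Lars, 32 and 43). These 6 groups stood above the 55.5% of all genes with a member, but 2 of them did so through their leading gene. Without Atp9a the pumps stood at 49.9 ± 1.66%, and without Eftud2 the translation genes at 50.2 ± 3.02%, while the other 4 without theirs stood between 58.0% and 68.0%.

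Motor genes stood at 56.0 ± 2.71% with 16 of 31 genes represented, with Kif5c, Kif5a and Kif5b (56 and 59 reads) in the lead. Without Kif5c the share of the motor genes was 47.5 ± 0.346%. Extracellular matrix genes (24 of 60, 52.8 ± 5.88%) were led by the collagens Col3a1, Col1a1 (26 and 39) and Col4a1 (22 and 25), and stood at 44.7 ± 2.78% without Col3a1. Chromatin and transcription genes (46 of 77) stood at 49.9 ± 0.519%, with Polr2b, a subunit of RNA polymerase II (62 and 60), Smarcc2 (41 and 42) and the cohesin subunit Smc1a (38 and 34). Kinases, exchange factors and scaffolds (47 of 90) stood at 49.9 ± 1.47%, with the diacylglycerol kinase Dgkz (98 and 145), the adenylyl cyclase Adcy2 (89 and 89) and Ptk2b (104 and 70). Presynaptic genes (8 of 19) stood at 48.6 ± 2.34% and rested on the liprin Ppfia3 (54 and 83), since Stxbp5 (6 and 6) and Ppfia1 (4 and 4) had few reads. Without Ppfia3 the share of the presynaptic genes was 24.6 ± 6.88%.

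The lowest shares were in genes of the neuronal surface and the membrane skeleton. Spectrins, ankyrins and linkers had 14 of 32 genes with a member and a share of 38.3 ± 1.26%. Nckap1 (163 and 184 member reads, 90.1% and 90.6% full length) and Cyfip1, another WAVE complex subunit (53 and 47, 81.5% and 73.4%), stood far above the group, whose share without Nckap1 was 23.6 ± 0.488%. Ion channels had 10 of 41 genes and 30.9 ± 0.681%, led by the sodium channel Scn8a (22 and 27), with Ano4 (6 and 3) and the leak channel Nalcn (3 and 6). Adhesion and guidance receptors had 30 of 79 genes and 16.9 ± 0.806%, led by Chl1, a neural cell adhesion molecule (13 and 12), Adgrb2 (11 and 11, against 148 and 179 ISM reads) and Sorl1 (7 and 13). These shares are sums over genes of different length, and the part that length has in them was not tested.

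Among reads with 25 or more exons of any class (14644 and 16339), Known chains were 59.9% and 59.3%, and annotated splice sites in an unannotated combination (NIC) were 19.4% and 20.7%. Chains with at least 1 unannotated site (NNC) were 11.8% and 11.3%. Among reads with 2 to 24 exons the same shares were 77.7% and 77.3%, 7.49% and 7.35%, and 4.86% and 4.98%. With ISM reads left out, NIC reads numbered 1.22 per 100 introns read in both libraries at 2 to 4 exons and 0.797 and 0.896 at 25 to 29, so per intron they were not more frequent in the longer chains. In genes with a member there were 3901 unannotated chains of 25 or more exons, and 535 of them were seen in both libraries. Of these 381 were NIC in both, 106 were NNC in both and 48 were classed differently by the libraries, which were processed separately.

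In 48 genes with a member an unannotated chain of 25 or more exons had more reads than the leading member in both libraries. Snap91, which encodes the clathrin assembly protein AP180 of synaptic vesicles, had a 29-exon NIC chain with 96 and 109 reads and 1 and 1 reads of its only member. Compared with that member, Snap91-204, the chain held 3 more cassette exons of 84, 84 and 15 bases, with inclusion of 95.7% or higher in either library, and it also differed in other introns. Dctn1, a dynactin subunit, had a 26-exon NIC chain with 96 and 108 reads against 14 and 26 for Dctn1-201. Atp2c1, a calcium pump of the Golgi, had a 28-exon chain with 92 and 104 reads, classed as NNC in replicate 1 and as NIC in replicate 2, against 28 and 35 for Atp2c1-201, from which it differed by 1 donor site 6 bases away. Mink1, a kinase gene, had a 33-exon NIC chain with 39 and 35 reads that adds an 87-base exon to Mink1-205 (22 and 22 reads).

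The libraries were compared model by model, setting a model's reads against all other mouse reads in Fisher's exact test (two-sided), with Benjamini-Hochberg adjustment over all 10026 Known models with at least 10 reads. Of these 148 passed an adjusted p of 0.05 (1.48%). Of the 297 members tested 3 passed (1.01%), and 22 (7.41%) had an unadjusted p under 0.05, against 10.3% of all tested models, so members did not stand out from the background. The median log2 ratio of replicate 2 over replicate 1 was -0.11 over the tested members and -0.03 over all tested models.

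Col3a1-201, the 51-exon model of fibrillar collagen III on chromosome 1 (45311538 to 45349706), was read 46 times in replicate 1 and 113 times in replicate 2, a log2 ratio of 1.03 (0.54 to 1.53; adjusted p = 0.00428, Fisher's exact test). Enpp2-201 had 121 and 228, a log2 ratio of 0.66 (0.34 to 0.97; adjusted p = 0.00767, Fisher's exact test). Ptk2b-201, of a focal adhesion kinase relative abundant in forebrain neurons, had 99 and 67, a log2 ratio of -0.81 (-1.26 to -0.37; adjusted p = 0.0292, Fisher's exact test). Col3a1 and Enpp2 were thus higher and Ptk2b lower in replicate 2. With DESeq2 size factors and a binomial test all ratios rose by 0.10 on the log2 scale, 73.6% rather than 43.2% of the Known models called were higher in replicate 2, and the adjusted p of Ptk2b-201 became 0.0808.

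Marker levels of several tissues and cell types also differed between the libraries. Of the cortical markers, Tbr1 had 96 and 97 reads and Cux2 24 and 52. Summed CPM of 3 choroid plexus markers was 38.7 in replicate 1 and 256 in replicate 2 (Ttr 28 and 228 reads, Clic6 0 and 5), of 2 haemoglobin genes 214 and 429, of 5 striatal markers 906 and 220 (Drd2 13 and 0 reads), and of 4 oligodendrocyte markers 2498 and 1618. The sum of 4 excitatory neuron markers was 3433 and 5001, and that of 3 inhibitory neuron markers 355 and 261.8. The excitatory difference came mainly from Nrgn (1942 and 3525 CPM). Camk2a was also higher in replicate 2 (74.83 and 117.9 CPM), while Slc17a7 (1368 and 1316) and Neurod6 (49.03 and 42.2) were lower. The inhibitory marker Slc32a1 went against its group's sum, with 1 and 5 reads. The sum of 3 endothelial markers was close, at 359 and 374. Enpp2 is expressed in choroid plexus and oligodendrocytes, Col3a1 in meningeal and vascular fibroblasts, and Ptk2b in striatum as well as cortex. The part of these tissues and cell types in the 3 differences was not tested. In bulk tissue, fewer cells of a type and less RNA per cell cannot be told apart.

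The full-length share was compared between libraries in the same way, as Known spliced against ISM reads in the 4887 genes where each library held 20 or more of them. Of these 99 (2.03%) passed the threshold, and of the 212 tested genes with a member 2 did (0.943%). Kif5c had 231 member and 59 ISM reads in replicate 1 and 246 and 117 in replicate 2 (79.7% and 67.8% full length; adjusted p = 0.0371, Fisher's exact test). Its ISM reads with a single exon numbered 0 and 46, while its reads of the class Genomic, which overlap a gene without matching its splicing, numbered 38 and 0. With spliced ISM reads alone 5 of all genes were called, and Kif5c was not among them. Pde2a had 172 member and 60 ISM reads, then 199 and 20 (adjusted p = 0.000369, Fisher's exact test), while the overlapping Gm45837 held 94 and 149 ISM reads, so the difference in Pde2a cannot be told apart from a different division of reads between the 2 genes.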

How the data were processed

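Per the labels, total RNA of left cerebral cortex was sequenced with long reads, 1 library per replicate. The deposited tables hold the authors' read counts per transcript model, whole numbers with no normalization. Per the text deposited beside them, the assembly was mm10 and the annotation GENCODE M21, and each library was treated separately. The deposited models name TALON. Its version and the aligner were not given in the sources used here. A Known read that matches an annotated chain is counted whatever its ends, and a model's class depends on the annotation release. Spike-in models (by contig name) were left out. The members, gene groups and tests were chosen with earlier results of these data known.

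Computed here, with Python 3.11.15, pandas 2.3.3 and SciPy 1.17.1: shares of reads with 95% Wilson intervals and Newcombe intervals of differences; log2 ratios with 0.5 reads added; two-sided Fisher's exact tests with Benjamini-Hochberg adjustment. Intervals cover counting error only, and PCR copies cannot be told apart without molecular identifiers. edgeR 4.0.16 and DESeq2 1.42.0 gave alternative size factors only. ISM chains were placed in members by introns, and cassette exons were found from introns of all reads of a gene. The library test was tested on simulated data. Named were the leading, longest and most exon-rich members, those past a test, the 3 leading genes of each group, the extremes of the full-length share, and pairs of members in 1 gene. The rule named the 6 leading such pairs; other genes with cassette exons, unannotated chains or recurrent incomplete chains were named after their values were seen. Some items are not reported here.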

Additional observations from a re-analysis of the deposited data

How the results depend on the processing

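No paired analysis was possible because there is only 1 group. The number of members was 930, 597 with a read required in both libraries, 2018 from 20 exons and 419 from 30 exons. The member share of Known reads (1.67%) was 1.09% of all mouse reads, 1.74% of spliced Known reads, 5.02% from 20 exons and 0.537% from 30. The full-length share of 55.5% was 61.2% with only ISM chains inside a member, 57.5% with spliced ISM, 42.0% with NIC and NNC in the denominator, 57.7% with all Known spliced reads in the numerator, 65.9% with models of 2 or more reads, 64.3% from 20 exons, 43.7% from 30, and 47.3% over all genes annotated with 25 or more exons, an alternative chosen after seeing the data. Replicate 1 alone gave 735 members, a share of 1.715%, a full-length share of 56.4% and an ISM difference of 30.28 points, and replicate 2 alone 792, 1.623%, 54.67% and 30.84 points. In genes with a member, 43 spliced chains were ISM in a library and NIC or NNC in the other. With all of them as ISM the full-length share was 56.2% and 54.45%, with none 56.55% and 54.8%, a check chosen after seeing the data. The ISM difference kept its sign under each alternative run, from 23.3 to 30.8 points. With no read minimum 96 Known models were called in place of 148, and 2 members (Ptk2b-201 was lost); from 20 exons 10 members were called. With spliced ISM only, 5 genes in place of 99 were called for their full-length share. The other 24 values recomputed for these results, replicates left out included, stayed within the spread, on their side of the threshold or within 1.5 times the count. Of 36 recomputed log2 ratios of named members, that of Ptk2b-201 alone lost its call (-0.71, adjusted p = 0.0808, DESeq2 size factors). Depth limits most members: 247 had 1 read.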

Other observations

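Adgrb2, an adhesion receptor of the brain angiogenesis inhibitor family, had a low full-length share for a well-read gene, 6.92% and 5.79%. Its reads of all classes still resolved a 99-base exon, chosen for mention after its values were seen, that was included in 93 reads and skipped in 80 in replicate 1 (53.8%) and included in 101 and skipped in 90 in replicate 2 (52.9%).

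In Ktn1, which encodes kinectin, 4 variable exons were covered together. In replicate 1, 5 reads held a 69-base and a 110-base exon, 3 the 69-base exon alone, 8 the 110-base exon alone and 49 neither, and in replicate 2 the counts were 6, 5, 8 and 60. The 110-base exon was thus present in 62.5% and 54.5% of reads with the 69-base exon and in 14.0% and 11.8% of reads without it. This pair was picked from 26 after the values were seen.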
